A study of Mus musculus with 6 samples.

Results

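The genes described are the nuclear genes named for mitochondrial complex I. They were taken as every protein-coding gene of the deposited table whose symbol starts with Nduf, which gave 46 of 24935 genes, 16996 of them protein-coding. The only other Nduf gene in the table, Ndufab1-ps, is a pseudogene and was left out. Of the 46 genes, 36 encode subunits of complex I. These are 7 core subunits, 9 accessory subunits of the matrix arm, 9 of the proximal membrane arm and 11 of the distal membrane arm. Another 8 encode assembly factors (Ndufaf), and 2, Ndufa4 and Ndufa4l2, carry the symbol but belong with complex IV.

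C57BL/6 mouse pups were kept with their dams in 85% oxygen (hyperoxia) or in room air from postnatal day 2 (P2) to P14, and the left hippocampus was taken at P14. RNA of 3 animals per group was sequenced, as strand-specific libraries of polyA-selected mRNA. Both sexes were used in the study, and which pups were male is not given for these libraries. The deposited columns name the group and a number from 1 to 3 but not the animal, so libraries are called air 1 to 3 and hyperoxia 1 to 3, and air and hyperoxia below mean the libraries so labelled. Every direction rests on these column names alone. The sources used here do not all give this comparison the same direction, and no measurement in the table settles it. If the column names were exchanged between the groups, every log2 fold change below would change sign while its size and test would stay. Values given relative to the air mean would then have the other group as their reference, and their sizes would change.

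Complex I is the entry point of the respiratory chain. It takes electrons from NADH, passes them to ubiquinone and pumps protons across the inner mitochondrial membrane. Its core subunits carry out these reactions and are encoded partly in the nucleus and partly in the mitochondrial genome, while the accessory subunits, all nuclear, surround the core and are needed for its assembly and stability. Neurons depend heavily on this chain for ATP, and complex I is also a site where superoxide is formed.

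By the column names, the largest decreases after hyperoxia among these genes were those of Ndufa1 and Ndufb3, and the largest increase was that of Ndufc1. Their promoters are shown because the 3 genes span the range of the responses. The sequences are from RefSeq on GRCm38.p6, each read in the direction of transcription, from 250 bases before to 30 bases after the start site. Capitals mark matches to the 4 motifs described next. The stretches are chrX:37191209-37191488 (minus strand) for Ndufa1, chr1:58586147-58586426 (plus strand) for Ndufb3 and chr3:51408926-51409205 (minus strand) for Ndufc1.
Ndufa1: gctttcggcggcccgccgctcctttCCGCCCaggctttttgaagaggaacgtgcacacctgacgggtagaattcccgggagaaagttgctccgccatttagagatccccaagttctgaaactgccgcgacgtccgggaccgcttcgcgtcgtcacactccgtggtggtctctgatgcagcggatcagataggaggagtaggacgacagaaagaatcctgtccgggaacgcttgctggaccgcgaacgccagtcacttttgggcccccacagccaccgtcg
Ndufb3: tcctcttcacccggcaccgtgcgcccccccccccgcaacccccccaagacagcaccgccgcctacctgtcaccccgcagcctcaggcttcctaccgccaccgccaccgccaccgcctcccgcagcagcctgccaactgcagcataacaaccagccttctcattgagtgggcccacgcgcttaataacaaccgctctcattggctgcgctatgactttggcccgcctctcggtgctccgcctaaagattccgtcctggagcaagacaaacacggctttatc
Ndufc1: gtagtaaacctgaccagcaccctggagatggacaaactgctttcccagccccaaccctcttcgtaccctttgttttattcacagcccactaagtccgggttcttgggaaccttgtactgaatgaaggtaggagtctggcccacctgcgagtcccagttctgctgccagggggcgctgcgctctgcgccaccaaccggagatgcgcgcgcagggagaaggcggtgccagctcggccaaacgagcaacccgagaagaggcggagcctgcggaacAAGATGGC

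The motifs searched, on both strands, were GCATGCGC (NRF1), CCGGAAG (ETS factors such as GABP), AAGATGGC (YY1) and GGGCGG (SP1). The search covered 300 bases per promoter, with 50 bases after the start, and 40 of the 46 genes had a promoter in the reference. The YY1 letters were found for 8 of the 40 genes (20%), against 3.19% of all 27025 genes with a promoter and 4.65% of the protein-coding genes that were tested. The NRF1 letters were found for 5 genes (12.5%), against 3.05% and 5.49%. For the ETS letters the numbers were 6 genes (15.0%), 9.93% and 17.61%, and for the SP1 letters 21 genes (52.5%), 38.2% and 66.77%. Among the 8 genes with a promoter that fell after hyperoxia, the NRF1 letters were found for 1, the YY1 letters for 1, the SP1 letters for 3 and the ETS letters for 0. For the 3 genes that rose, the numbers in the same order were 1, 2, 1 and 0. For the 29 with a promoter that did neither, they were 3, 5, 17 and 6. In the stretches shown, Ndufa1 holds the SP1 letters in reverse complement, Ndufc1 holds the YY1 letters just after the start, and Ndufb3 holds none of the 4. The start sites of GENCODE M21 differ from those of RefSeq by 75 bases for Ndufa1, 13 for Ndufb3 and 33 for Ndufc1. A match of letters does not show that a factor binds there.

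Values are normalized counts, that is, reads per gene divided by 1 size factor per library. The 6 libraries held 30384052 to 38746972 reads on genes, and all 46 genes passed the filter on low values (a mean of at least 10), as did 17778 genes in all. Hyperoxia and air were compared with limma on log2 of the normalized count plus 1, and a gene is said to have risen or fallen where the Benjamini-Hochberg adjusted p over all 17778 genes was under 0.05. An exact permutation test of 1 gene on 3 against 3 samples could not reach that level, since its smallest two-sided p is 0.1.

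After hyperoxia, 9 of the 46 genes fell (15.6% of all genes tested did) and 3 rose (14.9% of all genes tested did). Together, 12 genes (26.1%) changed, a share below the 30.5% of all genes tested. The groups did not overlap, with every hyperoxia library below every air library, for 9 of the 46 genes, against 23.8% of all genes tested. In 5 genes every hyperoxia library lay above every air library, against 22.3% of all genes tested. The median log2 fold change of the 46 genes was -0.05, and that of all genes tested -0.01. The decreases were in accessory subunits and assembly factors, and none of the 7 core subunits passed the test. Whether core and accessory subunits differed was not tested.

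**Figure D1:**
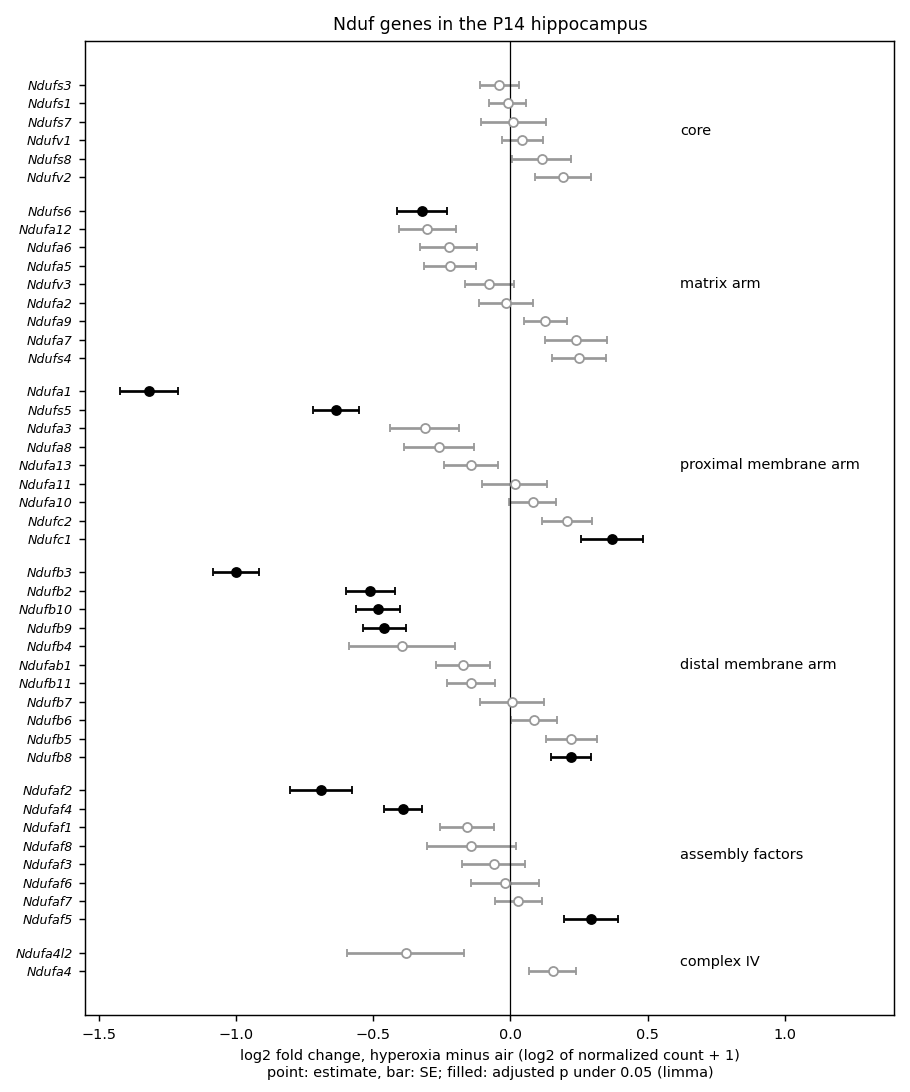
Log2 fold change (hyperoxia minus air, log2 of normalized count + 1) of 45 of the 46 Nduf genes, grouped by role, with the standard error as a bar and filled points where the adjusted p was under 0.05. The core subunits plotted lie between -0.04 and 0.19 with open points, and the 2 points farthest to the left are Ndufa1 at -1.32 and Ndufb3 at -1.002.

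The 7 core subunits bind the flavin and the iron-sulfur clusters along which electrons travel, and form the site where ubiquinone is bound. Ndufv1 and Ndufv2, at the NADH end of the arm, had log2 fold changes of 0.04 (SE 0.07, adjusted p = 0.687) and 0.19 (SE 0.10, adjusted p = 0.176). Ndufv1 measured 2812, 2936 and 2733 in air 1 to 3 and 2788, 3153 and 2809 in hyperoxia 1 to 3. Ndufv2 measured 3634, 3964 and 3615 in air and 4020, 5006 and 3859 in hyperoxia. In both genes hyperoxia 2 was the highest of the 6 libraries and the groups overlapped. Ndufs1, the largest core subunit, measured 3423, 3516 and 3382 in air and 3256, 3533 and 3465 in hyperoxia, a log2 fold change of -0.01 (SE 0.07, adjusted p = 0.923).

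Ndufs3 measured 1780, 1839 and 1707 in air and 1645, 1756 and 1779 in hyperoxia (log2 fold change -0.04, adjusted p = 0.695). Its groups overlapped. Ndufs7 and Ndufs8, which hold the last clusters before ubiquinone, had log2 fold changes of 0.01 (adjusted p = 0.952) and 0.11 (adjusted p = 0.442). Ndufs7 measured 1606, 1668 and 1351 in air and 1530, 1799 and 1345 in hyperoxia. Ndufs8 measured 1838, 1849 and 1743 in air and 1903, 2312 and 1706 in hyperoxia. Both genes were highest in hyperoxia 2 and lowest in hyperoxia 3. The summed normalized count of the 7 core genes was 19049 to 20393 in air and 19622 to 22716 in hyperoxia.

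Of the 9 accessory subunits of the matrix arm, 1 fell (15.6% of all genes tested did) and none rose (14.9% did). Ndufs6, a small zinc-binding subunit, measured 1877, 1813 and 1708 in air and 1353, 1630 and 1351 in hyperoxia. All hyperoxia libraries were below air, with hyperoxia 2 nearest to it. Its log2 fold change was -0.32 (SE 0.09, adjusted p = 0.0252), and this call held in 10 of 17 alternative analyses, with an adjusted p of up to 0.351. It was lost without air 1 (adjusted p = 0.107), air 2 (0.0914), air 3 (0.0505), hyperoxia 1 (0.0978) or hyperoxia 3 (0.0572). The other 8 genes ran from Ndufa12 at -0.30 (adjusted p = 0.0532) to Ndufs4, a subunit whose loss causes Leigh syndrome, at 0.25 (adjusted p = 0.0848). Ndufs4 measured 912, 1018 and 915 in air and 1069, 1287 and 1037 in hyperoxia, so its groups did not overlap although it did not pass the test.

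In the proximal membrane arm, 2 of 9 accessory subunits fell (15.6% of all genes tested did) and 1 rose (14.9% did). Ndufa1 (ENSMUSG00000016427.7, chrX:37187588-37191163 on GRCm38), a small subunit with 1 membrane helix, is X-linked. It measured 2966, 2406 and 2646 in air and 1030, 973 and 1215 in hyperoxia. The highest hyperoxia library was far below the lowest air library. Its log2 fold change was -1.32 (SE 0.11, adjusted p = 0.000236), or 2.49-fold lower in the libraries labelled hyperoxia. Ndufs5 (ENSMUSG00000028648.13, chr4:123712710-123718202), which lies on the intermembrane space side, measured 2212, 2159 and 1889 in air and 1290, 1413 and 1321 in hyperoxia. The groups were well apart, with a log2 fold change of -0.63 (SE 0.08, adjusted p = 0.00105). A processed pseudogene, BC002163, is 99.4% identical to Ndufs5 over 319 bases, and its own mean was 77.1 in air and 41.6 in hyperoxia, so reads could be split between the 2.

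Ndufc1 (ENSMUSG00000037152.11, chr3:51404677-51408988), a small membrane subunit, measured 407, 344 and 400 in air and 444, 548 and 499 in hyperoxia. Each hyperoxia library was above each air library. Its log2 fold change was 0.37 (SE 0.11, adjusted p = 0.0325), and 12 of 17 alternatives kept the call. It was lost without air 1 (adjusted p = 0.0651), air 2 (0.135), air 3 (0.0663) or hyperoxia 3 (0.0572). Ndufa8 measured 3053, 3110 and 2901 in air and 2284, 3197 and 2198 in hyperoxia. Here hyperoxia 2 lay above all air libraries and hyperoxia 1 and 3 below them, and the log2 fold change was -0.26 (SE 0.13, adjusted p = 0.154). Without hyperoxia 2 it was -0.43 (adjusted p = 0.000358). The remaining 5 genes (Ndufa3, Ndufa10, Ndufa11, Ndufa13 and Ndufc2) ran from -0.31 to 0.21.

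In the distal membrane arm, 4 of 11 accessory subunits fell (15.6% of all genes tested did) and 1 rose (14.9% did). Ndufb3 (ENSMUSG00000026032.8, chr1:58586384-58595964) measured 2628, 2350 and 2257 in air and 1125, 1223 and 1260 in hyperoxia. The 3 hyperoxia values were close together and all below air, with a log2 fold change of -1.002 (SE 0.08, adjusted p = 0.00026). Ndufb10, a subunit with disulfide bonds on the intermembrane space side, measured 3782, 3709 and 3484 in air and 2512, 2875 and 2483 in hyperoxia. Its log2 fold change was -0.48 (SE 0.08, adjusted p = 0.00251). Ndufb9, a member of the LYR protein family, measured 6112, 6297 and 6093 in air and 4100, 4928 and 4465 in hyperoxia. Its log2 fold change was -0.46 (SE 0.08, adjusted p = 0.00307). For both, hyperoxia 2 was the hyperoxia library nearest to air.

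Ndufb2 measured 461, 454 and 457 in air and 334, 301 and 327 in hyperoxia. Its log2 fold change was -0.51 (SE 0.09, adjusted p = 0.00342). Its air libraries agreed closely and hyperoxia 2 was here the lowest. Ndufb8 measured 1457, 1512 and 1456 in air and 1674, 1837 and 1654 in hyperoxia. Every hyperoxia library was above air, with a log2 fold change of 0.22 (SE 0.07, adjusted p = 0.0447), and 10 of 17 alternatives kept the call. Leaving out air 1 (adjusted p = 0.14), air 2 (0.107), air 3 (0.135) or hyperoxia 1 (0.0879) ended it. Exons of Ndufb2, Ndufb8 and Ndufb9 overlap those of another annotated gene on the same strand, by 2.58%, 4.26% and 19.5% of their exon bases, so part of their reads could be counted elsewhere. Ndufb11, the other X-linked member, measured 2447, 2575 and 2382 in air and 2162, 2512 and 2049 in hyperoxia, a log2 fold change of -0.14 (SE 0.09, adjusted p = 0.24). Its groups overlapped through hyperoxia 2, and without that library the log2 fold change was -0.23 (adjusted p = 0.0145).

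Of the 8 Ndufaf genes, which help to build complex I and do not remain in it, 2 fell and 1 rose. Of all genes tested, 15.6% fell and 14.9% rose. Ndufaf2, a paralogue of Ndufa12 that holds a late assembly stage, measured 511, 500 and 511 in air and 267, 336 and 346 in hyperoxia. The groups were widely apart, with a log2 fold change of -0.69 (SE 0.11, adjusted p = 0.00256). Its exons share 65.65% of their bases with a long noncoding RNA on the other strand, and whether the counting used the strand is not known. Ndufaf4 measured 1403, 1363 and 1411 in air and 1019, 1073 and 1092 in hyperoxia, a log2 fold change of -0.39 (SE 0.07, adjusted p = 0.00381). Ndufaf5, an enzyme that hydroxylates Ndufs7, measured 548, 552 and 514 in air and 614, 749 and 624 in hyperoxia. It lay above air in all 3 libraries, with a log2 fold change of 0.29 (SE 0.10, adjusted p = 0.049), and 9 of 17 alternatives kept the call. Leaving out air 1 (adjusted p = 0.117), air 2 (0.114), air 3 (0.151), hyperoxia 1 (0.0642) or hyperoxia 2 (0.0648) ended it. The other 5 ran from -0.16 to 0.03.

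The 2 genes that belong with complex IV did not pass the test. Ndufa4 measured 5227, 5380 and 5104 in air and 5459, 6634 and 5453 in hyperoxia. The groups did not overlap, and the log2 fold change was 0.15 (SE 0.09, adjusted p = 0.21). Ndufa4l2, known as a target of hypoxia-inducible factor, was low, with 154, 130 and 159 in air and 117, 152 and 81.1 in hyperoxia (log2 fold change -0.38, SE 0.21, adjusted p = 0.202).

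**Figure D2:**
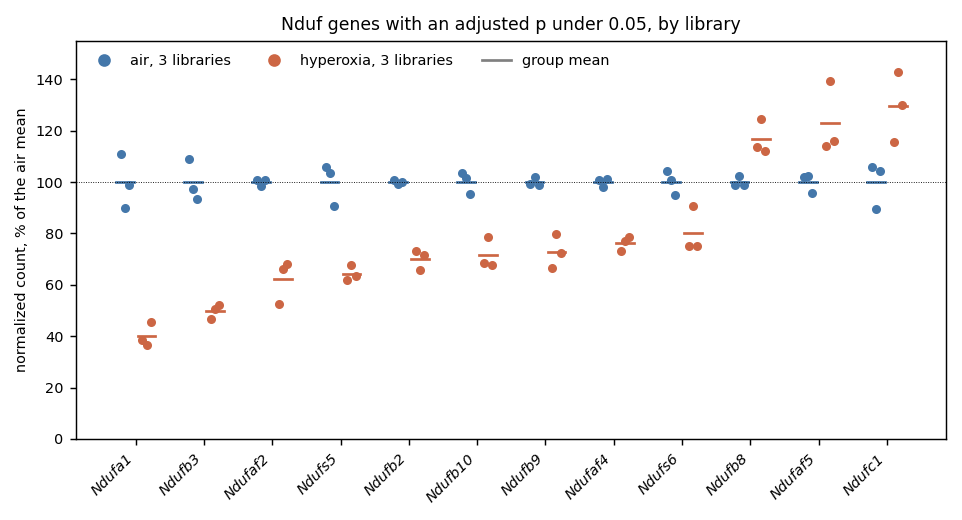
Normalized count of the 12 Nduf genes with an adjusted p under 0.05 in each library, as a percentage of the gene's air mean (points: libraries, short lines: group means). In each of the 12 genes the 3 hyperoxia libraries lie on one side of the 3 air libraries, with Ndufa1 and Ndufb3 farthest below.

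The genes differed widely in level. Per kilobase of the longest annotated transcript, the normalized count in air ran from 8760 for Ndufb9 to 105 for Ndufb2, with Ndufa1 second at 6378, then Ndufb10 at 4387, Ndufa4 at 4251, Ndufa8 at 3509, Ndufb3 at 3161 and Ndufs5 at 3069. The ranges of neighbours in this order overlapped in air for 30 of 45 pairs. From air to hyperoxia, Ndufa1 moved from rank 2 to rank 6 of the 46 genes, Ndufb3 from rank 6 to rank 24 and Ndufs5 from 7 to 14. Ndufb9 was first in both groups. The order depends on the transcript chosen, since 18 of the 46 genes have a principal transcript that is shorter than the longest one. By the principal transcript Ndufa1 was at rank 3 in air and 10 in hyperoxia, and Ndufb3 at rank 10 and 28. Ndufb9 was then at rank 1 in air and rank 2 in hyperoxia, where Ndufa4 was at rank 1. Ndufb2 was at rank 46 either way, since its longest and its principal transcript are both annotated with 4371 bases. Its low level per kilobase rests on that length.

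**Figure D3:**
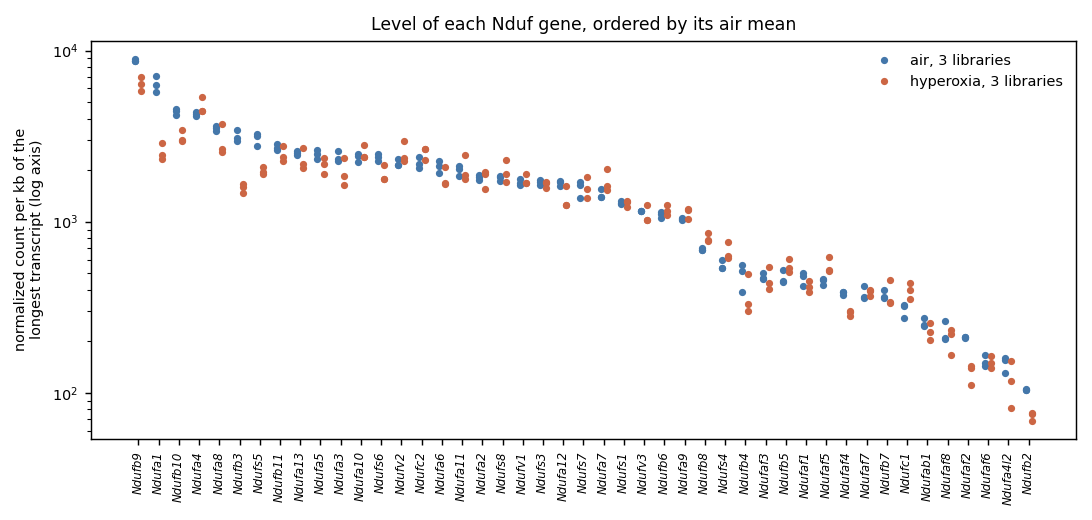
Normalized count per kilobase of the longest transcript (log axis) for 45 of the 46 Nduf genes in the 3 air and 3 hyperoxia libraries, ordered by the air mean from Ndufb9 (8760) to Ndufb2 (105). Ndufa1 and Ndufb3 are the genes of the left part whose hyperoxia points lie farthest below their air points.

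Hyperoxia 2 stood apart from the other hyperoxia libraries in these genes. Among replicate pairs, those with hyperoxia 2 also differed most over the whole table, as given below. Hyperoxia 2 was the highest of the 3 in 36 of the 46 genes (78.3%), against 40.2% of all genes tested. The median difference of the 46 genes from their air means, on the log2 scale, was -0.12 in hyperoxia 1, 0.07 in hyperoxia 2 and -0.18 in hyperoxia 3, and between -0.05 and 0.04 in the air libraries. It also had the fewest reads, 30384052. In total, the 36 subunit genes summed to 79229, 80202 and 75762 normalized counts in air and to 67365, 79516 and 68200 in hyperoxia, and on this scale only hyperoxia 2 reached the air range. Per kilobase of the longest transcript, the same sum was 72190 to 76140 in air and 59210, 70180 and 61040 in hyperoxia 1 to 3, where hyperoxia 2 was the highest of the 3 and below air.

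Without hyperoxia 2, 20 of the 46 genes fell (22.1% of all genes tested did) and 3 rose (21.6% of all genes tested did), with a median log2 fold change of -0.16. The 3 that rose were Ndufa9, Ndufb8 and Ndufc1. All 9 genes that fell with 6 libraries were among the 20. The 11 others were Ndufa3, Ndufa5, Ndufa6, Ndufa8, Ndufa12, Ndufa13, Ndufab1, Ndufb4, Ndufb11, Ndufv3 and Ndufa4l2, from -0.61 for Ndufb4 to -0.17 for Ndufv3. None of the 7 core subunits passed the test without this library either, with log2 fold changes from -0.10 to 0.08. Whether something in the animal or in the handling of this library sets it apart was not tested.

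**Figure D4:**
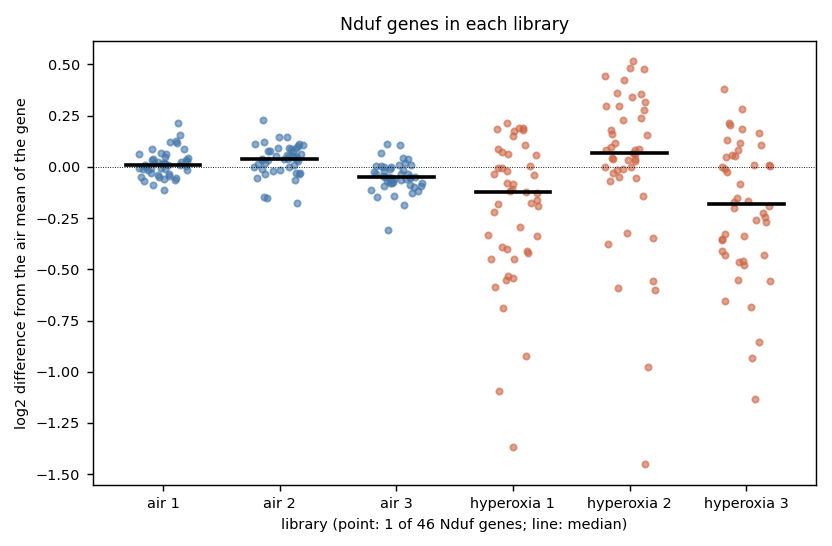
Log2 difference of each of the 46 Nduf genes from its air mean in each library (points: genes, lines: medians). The median is below 0 in hyperoxia 1 (-0.12) and hyperoxia 3 (-0.18) and above 0 in hyperoxia 2 (0.07).

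Short transcripts and fold changes were related across the whole table. Over 14914 protein-coding genes, the Spearman correlation of transcript length with the log2 fold change was 0.30, and that of GC content was -0.24. Over the 46 genes, which share the 6 libraries and are not independent, it was 0.22 for length and -0.19 for GC content. Complex I genes are short, with a median length of 1170.5 bases against 3444 for the protein-coding genes tested. When each library's smooth trend on length and GC content was removed, the same 9 genes fell (19.9% of all genes tested did) and 10 rose (14.9% of all genes tested did), and the median log2 fold change turned from -0.05 to 0.03. Among the 7 additional genes that rose were the core subunits Ndufv1 (0.22, adjusted p = 0.0126) and Ndufs8 (0.29, adjusted p = 0.00968) and the accessory subunits Ndufa7, Ndufa10, Ndufc2 and Ndufs4. With the principal transcript in place of the longest, a choice made after the first values had been seen, 8 fell (19.6% of all genes tested did) and 12 rose (14.7% of all genes tested did). There Ndufs6 no longer passed (adjusted p = 0.351), and Ndufv1 and Ndufs8 again rose. The falls of Ndufa1, Ndufb3, Ndufaf2, Ndufs5, Ndufb2, Ndufb10, Ndufb9 and Ndufaf4 passed the test in all 17 alternatives. With the length and GC trend removed, however, the log2 fold change of Ndufb9 shrank from -0.46 to -0.26 (-0.26 with principal transcripts) and that of Ndufb10 from -0.48 to -0.31 (-0.29 with principal transcripts). The direction of the group as a whole depended on the analysis.

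**Figure D5:**
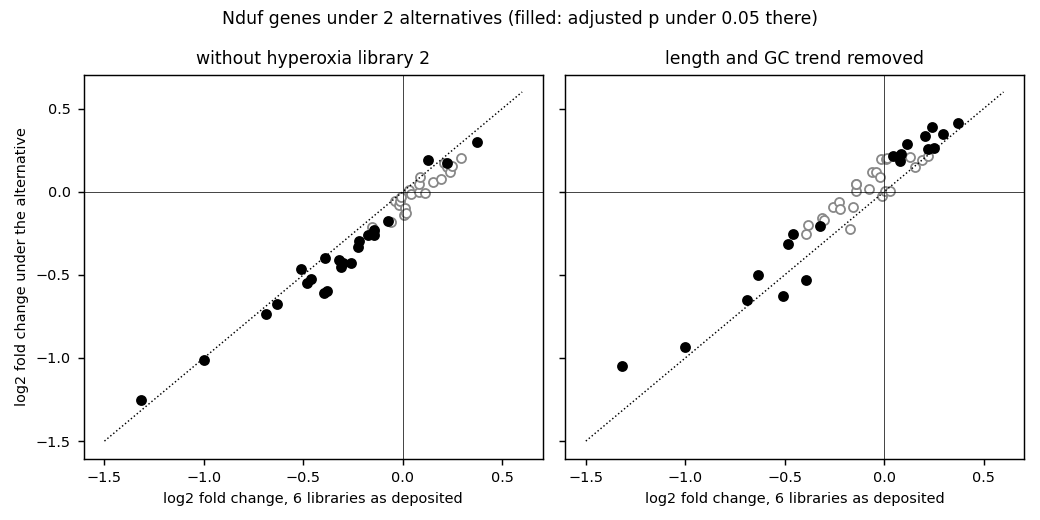
Log2 fold change of the 46 Nduf genes with all 6 libraries as deposited (x axis) against that without hyperoxia library 2 (left) and with the length and GC trend of each library removed (right), with filled points where the adjusted p was under 0.05 in the alternative. Most points lie below the dotted line of equality on the left, where 20 genes fell, and above it on the right, where 10 rose.

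The core subunits encoded in the mitochondrial genome were described in the same way, and were not tested against the nuclear ones. Of 7 such genes in the table, 5 were tested, 3 fell (15.6% of all genes tested did) and none rose (14.9% did). mt-Nd2 measured 316453, 304306 and 289824 in air and 183220, 238406 and 176773 in hyperoxia, a log2 fold change of -0.62 (SE 0.14, adjusted p = 0.00884). The log2 fold changes of mt-Nd6 and mt-Nd5 were -0.54 (adjusted p = 0.0118) and -0.40 (adjusted p = 0.0367), and those of mt-Nd4 and mt-Nd1 were -0.41 (adjusted p = 0.13) and -0.30 (adjusted p = 0.214). All 5 were higher in hyperoxia 2 than in hyperoxia 1 and 3. Without that library all 5 fell (22.1% of all genes tested did), with a median of -0.64. The 5 genes share the same libraries and are not independent observations. mt-Nd3 and mt-Nd4l had at most 4.07 normalized counts in any library and were not tested. Overlap with other genes was looked up for the Nduf genes only, and whether the counting used the strand is not known. The counts of these 7 genes, mt-Nd6 included, therefore need not give the level of their own transcripts alone.

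Other genes needed to assemble complex I and outside the Nduf symbols were measured for 13 genes, of which 2 rose and 1 fell. Of all genes tested, 14.9% rose and 15.6% fell. Nubpl, which delivers iron-sulfur clusters to complex I, had a log2 fold change of 0.53 (SE 0.15, adjusted p = 0.0237). Acad9, an assembly factor related to acyl-CoA dehydrogenases, had one of 0.29 (SE 0.08, adjusted p = 0.0259). Atp5sl, whose product takes part in building the distal membrane arm, had one of -0.44 (SE 0.12, adjusted p = 0.0241). Of 38 nuclear genes of complexes II to V, 8 fell (15.6% of all genes tested did) and 1 rose (14.9% did). The median was -0.10. Together, 23.7% of the 38 genes changed, against 30.5% of all genes tested. The falls included Uqcrb (-0.77, adjusted p = 0.000967) of complex III, Cox8a (-0.71, adjusted p = 0.00218) of complex IV and Atp5k (-0.79, adjusted p = 0.00211) of ATP synthase. As in complex I, hyperoxia 2 was the highest hyperoxia library in most of the 38 genes, 30, against 40.2% of all genes tested. Without it, 17 of the 38 fell (22.1% of all genes tested did) and 1 rose (21.6% did). With the length and GC trend removed, 9 of the 38 fell (19.9% of all genes tested did) and 8 rose (14.9% did). With principal transcripts, 5 fell (19.6% of all genes tested did) and 8 rose (14.7% did). The medians were 0.0019 and 0.02.

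Of 11 regulators of respiratory chain genes, 1 rose (14.9% of all genes tested did) and 2 fell (15.6% did). Ppargc1a, a coactivator that drives mitochondrial gene expression, measured 1493, 1457 and 1512 in air and 2292, 1886 and 2064 in hyperoxia, a log2 fold change of 0.48 (SE 0.08, adjusted p = 0.00322). Esrra, a nuclear receptor that works with it, had a log2 fold change of -0.32 (adjusted p = 0.0144), and Tfb2m, a mitochondrial transcription factor, one of -0.54 (adjusted p = 0.0017). With the length and GC trend removed, 6 of the 11 fell (19.9% of all genes tested did) and 1 rose (14.9% did). Ppargc1a was then at 0.22 (adjusted p = 0.0378). With principal transcripts 5 fell (19.6% of all genes tested did), and Ppargc1a, at 0.20 (adjusted p = 0.061), no longer passed the test. Nrf1, Gabpa and Yy1, whose motifs were searched above, had log2 fold changes of -0.15, -0.05 and 0.12 (adjusted p = 0.157, 0.73 and 0.361).

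Markers of cell types moved between the groups as well. Of all genes tested, 15.6% fell and 14.9% rose. In bulk tissue, fewer cells of a type and less RNA per cell cannot be told apart. Markers of oligodendrocytes fell in 4 of 5 genes (Mbp, Mag and Mog among them), with a summed normalized count of 185805 to 279438 in air and 130580 to 160742 in hyperoxia. Neuronal markers fell in 3 of 5 (Rbfox3, Snap25 and Slc17a7), with a sum of 161894 to 168793 in air and 140176 to 148093 in hyperoxia. In the same list Gad1 was at -0.05 (adjusted p = 0.617), and Syt1 was at 0.26 (adjusted p = 0.0579) with every hyperoxia library above air. The list of hippocampal neurons fell in 1 of 5 (C1ql2), with a sum of 36064 to 37132 in air and 23489 to 37137 in hyperoxia. Markers rose in 2 of 2 genes for oligodendrocyte precursors, 2 of 4 for endothelial cells (Cldn5 and Kdr), 2 of 5 for astrocytes (Aqp4 and Aldh1l1) and 1 of 5 for microglia (Cx3cr1). Other members had log2 fold changes below 0 without passing the test, such as the astrocyte gene Gja1 at -0.09 (adjusted p = 0.297), with every hyperoxia library below air, and the microglial gene C1qa at -0.32 (adjusted p = 0.0565). The sums of these lists ran from 4381 to 4813 in air and 6477 to 6716 in hyperoxia for the precursors, from 5080 to 5386 and 6473 to 7446 for endothelial cells, from 65112 to 68464 and 66159 to 73211 for astrocytes and from 9600 to 9638 and 9911 to 11076 for microglia. For choroid plexus 1 of 5 rose (Aqp1), with sums of 534 to 1362 and 474 to 8040, the highest in hyperoxia 3. For red blood cells 1 of 5 rose (Hba-a1) and 1 fell (Hbb-bt), with sums of 1748 to 2835 and 2527 to 4042. Per kilobase of the longest transcript, the microglial sums overlapped, at 3911 to 3992 in air and 3698 to 4330 in hyperoxia. On that scale the sums of hippocampal neurons did not overlap, at 5583 to 5866 in air and 3603 to 4730 in hyperoxia. No marker of these lists had a mean of 0, and the part of cell composition in the changes of the Nduf genes was not tested.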

How the data were processed

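RNA-seq values of 6 hippocampal libraries (3 air, 3 hyperoxia) were used. The authors deposited a normalized count, treated here as a signal, per gene and library, in which each read count was divided by 1 size factor. The submitters' processing notes name FastQC, STAR 2.5.3a, HTSeq and DESeq2. The genome build, the annotation and whether counting used the strand are, for these data, not given in the sources. A second deposited table holds the authors' fold changes and p-values and was not used. In every library 100% of values were within 0.01 of whole multiples of 1 read, so reads were recovered for alternative count tests, in which edgeR called 5501 genes (3 Nduf genes higher, 9 lower) and DESeq2 5611 (3 higher, 10 lower). Replicate pairs differed by more than sampling noise (chi-square per gene 6.54 to 47.2). The highest values, 31.4 and 47.2, belonged to the pairs with hyperoxia 2, against 15.1 for hyperoxia 1 with hyperoxia 3.

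Genes with a mean of at least 10 were tested on log2(value + 1) in limma 3.58.1 (R 4.3.3), using its mean-variance trend and Benjamini-Hochberg adjustment. This scale understates changes of low genes, and the test was checked on simulated data. Another 16 analyses were run as alternatives, namely edgeR 4.0.16 and DESeq2 1.42.0 on recovered reads, other pseudocounts (0.5, 5), other filters on low values (none, mean 50), quantile and TMM scaling, limma with no trend, removal of length and GC trends (mgcv 1.9.3), and each library left out. The 17th, with principal transcript lengths, was added after the longest-transcript values had been seen. Positions and lengths came from GENCODE M21 on GRCm38 (99.7% of identifiers found, by identifier without version), promoters from RefSeq. Of the 46 genes, 19 overlap exons of another gene and 9 have a copy of at least 75 bases at 98% identity or more elsewhere, so their reads can be shared. Values per library are given for Nduf genes with an adjusted p under 0.05, the core subunits, Ndufa1, Ndufa8 and Ndufb11. Ndufs4, Ndufa4, Ndufa4l2, mt-Nd2 and Ppargc1a were added after their values were seen. The genes and lists were chosen with earlier results of these data known. The labels number 6 separate animals. Some genes are counted in the totals but are not reported here by name.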

Additional observations from a re-analysis of the deposited data

How the results depend on the processing

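No paired analysis was possible because the groups share no animal number in the labels. Of 357 results for 21 named genes under 17 alternatives, 313 kept their direction and side of the threshold, 27 no longer passed, 8 newly passed and 9 changed sign, 0 of the last in genes that had passed. The number of Nduf genes that rose, 3, was 1 with no filter on low values, 0 without the mean-variance trend, 10 with the length and GC trend removed, 12 with principal transcript lengths, and 0 to 3 with 1 library left out (0 without air 1, air 2 or air 3, and 1 without hyperoxia 1). Over all genes, 2643 rose, against 2670 with no filter, 1981 without the trend, and 2636 and 2607 with the 2 length and GC corrections. Without air 1, 2 and 3 the numbers were 1454, 1479 and 1828. Without hyperoxia 1, 2 and 3 they were 1571, 3840 and 2378. The number of Nduf genes that fell, 9, ranged from 8 to 20 with 1 library left out, 20 being without hyperoxia 2. Of all genes tested, 2782 fell with 6 libraries and 1602 (without air 1) to 3931 (without hyperoxia 2) with 1 left out. The median log2 fold change of the Nduf genes, -0.05, became 0.0291 and 0.0797 with the 2 length and GC corrections. With 1 library left out it ranged from -0.16 (without hyperoxia 2) to -0.0167 (without hyperoxia 1). Sign changes were seen for Ndufb11 (0.0024) and Ndufs3 (0.12) with the length and GC trend removed, Ndufs3 (0.12) with principal transcripts, Ndufs1 without hyperoxia 1 (0.0246) and air 2 (0.0057), Ndufs7 without hyperoxia 2 (-0.098) and air 3 (-0.0812), and Ndufs8 (-0.0063) and Ndufv1 (-0.014) without hyperoxia 2. With each library left out in turn, the log2 fold change ranged from -0.0344 to 0.0246 for Ndufs1, from -0.098 to 0.1119 for Ndufs7, from -0.0063 to 0.213 for Ndufs8 and from -0.014 to 0.0747 for Ndufv1. The cause of these changes was not tested. Each group had 3 libraries, and the parts of read depth and of the spread between libraries in these comparisons were not tested.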
